A study of Mus musculus with 29 samples.

Results

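The regions described here are the liver sites at which a glucocorticoid receptor (GR) ChIP-seq peak was listed in wild-type mice at 6pm and in no other GR list. The peaks of 6 GR ChIP-seq lists were merged into regions wherever they overlapped by at least 1 bp, and a region was kept when its only peak came from the WT 6pm list. The regions were thus chosen by the listed GR ChIP-seq peaks, and so by the peak calls behind those lists. This left 5386 regions, called 6pm-only regions below, of 15329 GR regions in all, which is 35.1%. Each holds 1 peak, so they are also 37.7% of the 14270 peaks listed at WT 6pm. The other 8884 regions with a WT 6pm peak also held a peak of at least 1 of the 5 other GR lists, and serve as the comparison.

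GR was profiled in livers of GRdim mice and of GR+/+ litter-mates (WT), all males of 12 weeks that had been back-crossed to BALB/c for 4 generations or more. The 3 conditions in each genotype were 6pm, the start of the dark phase of a 12 h cycle; 24 h with a subcutaneous prednisolone pellet (12 mg/kg) and collection at 6am; and 6am, the start of the light phase. GR was measured by ChIP-seq (1 peak list per genotype and condition) and by ChIP-exo (1 border list per genotype and condition), and C/EBPβ was measured by ChIP-seq in WT livers under the same 3 conditions. Every list was made from a pool of replicates 1 and 2, so no difference between conditions or genotypes has a replicate check, no p-value is given, and the 95% intervals below cover the counting of regions only; regions of 1 list are not replicates of a condition. Samples of RNA polymerase II and of input chromatin were not analysed here. Whole liver was used, so fewer cells bound at a site and less binding per cell cannot be told apart, and the mutation in GRdim mice is not limited by the labels to 1 cell type.

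GR is the nuclear receptor for corticosterone, the adrenal hormone whose level in nocturnal rodents is higher around the start of the dark phase than around the start of the light phase, and for drugs such as prednisolone. It binds palindromic response elements as a dimer and can also contact single sites, and GRdim carries a point mutation in the dimer interface of the DNA-binding domain. C/EBPβ is a basic leucine-zipper factor that is abundant in liver and often occupies the same enhancers as GR. In ChIP-exo an exonuclease trims each immunoprecipitated fragment until it meets the crosslinked protein, so that a bound protein leaves a border on each strand where sequencing tags start. Regions are given by mm9 positions as deposited; an mm9 sequence or gene annotation was not used here, and no bases, motifs or gene names are printed.

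The score in the ChIP-seq lists is the authors' own value per peak, it helped to choose the regions through the length of each list, and it is given as description only. The 6pm-only regions sat at the low end of the WT 6pm list. Their scores ran from 2.01 to 7.75 with a median of 2.48, and the middle 50% of them lay between 2.19 and 2.92. The other 6pm regions had a median of 4.35, with quartiles of 3.29 and 6.03 and a maximum of 26.35. A score of at least 3 was held by 1234 of the 6pm-only regions (22.9%) and by 7313 of the other 6pm regions (82.3%). A score of at least 5 was held by 16 of the 6pm-only regions and by 3342 of the others. When the WT 6pm list was split into 10 classes of equal size by score, 6pm-only regions made up 87.2% of the lowest class, with scores of 2.01 to 2.19, and 1 region of the highest. Scores stopped just above 2 in every list, and 743 of the 6pm-only regions had a score of 2.1 or less.

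The length of the lists moved with membership. The WT 6pm list held 14270 peaks, against 7440 for GRdim 6pm, 5781 for WT 6am, 4304 for WT prednisolone, 3208 for GRdim prednisolone and 3183 for GRdim 6am. Peaks found in 1 list only numbered 261 for GRdim 6pm (3.51% of that list), 397 for WT prednisolone (9.22%), 89 for GRdim prednisolone (2.77%), 72 for WT 6am (1.25%) and 35 for GRdim 6am (1.10%). Cutting the WT 6pm list by score to the length of the WT 6am list left 249 regions that were in it alone, and cutting all 6 lists to the length of the shortest left 185. The part of list length in the other results was not tested beyond those cuts.

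At the edge of the rule, the smallest gap between a 6pm-only region and another GR region was 10 bp, at chr19:10053250-10053449, with a score of 3.29. The next gaps were 18 bp at chr6:30162212-30162411 (score 3.22) and 28 bp at chr5:125561449-125561648 (score 2.78). In all, 10 of the 6pm-only regions had a gap of 50 bp or less. On the other side of the rule, the WT 6pm peak at chr1:182140360-182140559 (score 4.60) shared 5 bp with a peak of another list. The WT 6pm peaks at chr12:33986944-33987143 (score 2.56) and chr11:17551676-17551875 (score 6.32) shared 10 and 23 bp, and 15 peaks outside the set shared 50 bp or less. Few regions therefore lay close to the 1 bp limit on either side. The lowest score, 2.01, was held among others by chr1:30867476-30867675 and chr1:33155908-33156107.

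The ChIP-exo libraries were not used to choose the regions, but they profile the same factor under the same conditions as the peak lists, so differences from the other 6pm regions are given as description. A listed border of the WT 6pm library lay in 3096 of the 5386 6pm-only regions, or 57.5% (95% Wilson interval 56.2 to 58.8). Over all 14270 WT 6pm regions the share was 77%, and over the other 6pm regions it was 88.8% (88.1 to 89.4). Fewer of the 6pm-only regions than of the rest thus held a border in the library of the same genotype and time. A border of the GRdim 6pm library lay in 1388 of the 6pm-only regions, or 25.8% (24.6 to 27.0), against 72.1% of the other 6pm regions and 54.6% of all. At regions absent from the WT 6am peak list, the WT 6am ChIP-exo library still had a border in 2641, or 49.0% (47.7 to 50.4), against 87.2% of the others and 72.8% of all.

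The remaining 3 libraries gave shares below those of the WT 6pm and WT 6am libraries. With prednisolone, GRdim borders lay in 1253 of the 6pm-only regions (23.3%; others 67.6%; all 50.8%). WT borders with prednisolone lay in 1580 (29.3%; others 74.4%; all 57.4%). GRdim borders at 6am lay in 450 (8.35%; others 40.9%; all 28.6%). The shares of the 6pm-only regions were thus below those of the other 6pm regions in each of the 6 libraries, with intervals that did not meet. The GRdim 6am library was the smallest, at 31.6 M tags (M, 1e6) as computed from its listed tags and RPM, against 43.1 to 55.7 M for the other 5; it listed 14391 borders, against 35220 to 66573, and its lowest listed RPM was 0.126, against 0.054 to 0.07. The part of this depth in its low shares was not tested.

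**Figure D1:**
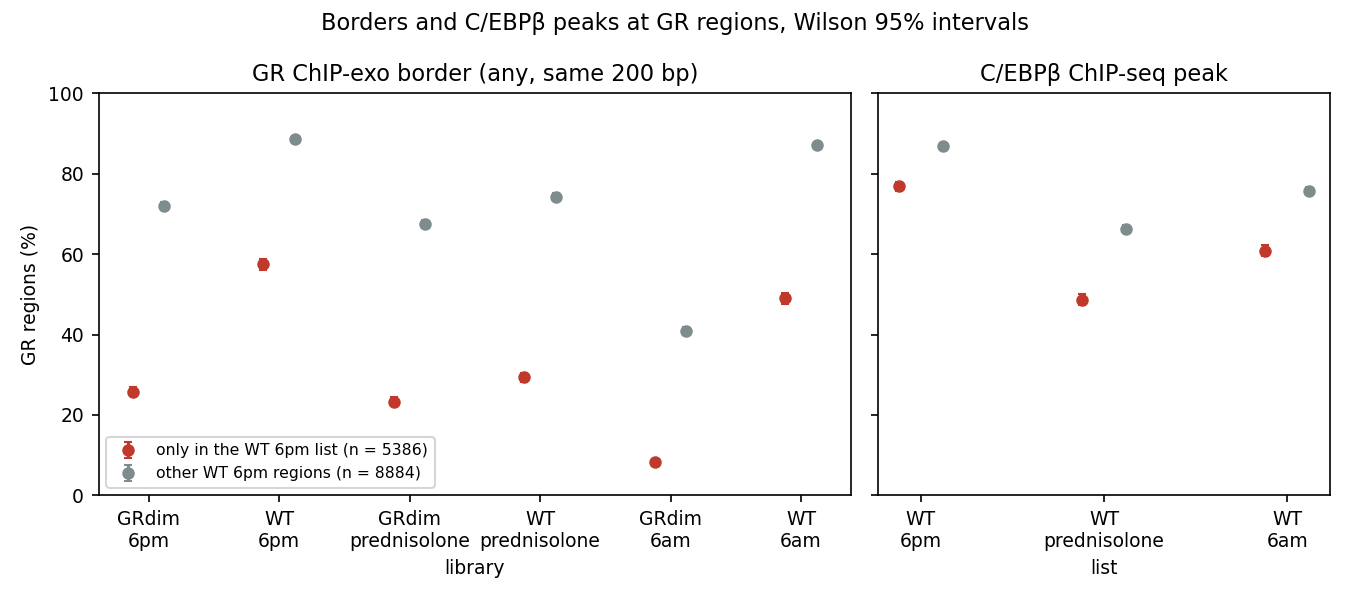
Share of GR regions (y axis, percent) that hold a ChIP-exo border of each library (left) or a C/EBPβ peak of each list (right); red points are the 5386 regions listed only at WT 6pm, grey points the other 8884 WT 6pm regions, and bars are Wilson 95% intervals over regions. The red points lie below the grey ones throughout, from 8.35% against 40.9% for GRdim 6am borders to 76.9% against 87.0% for C/EBPβ at 6pm.

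Since the 6pm-only regions had lower scores, shares were also compared at like score, as the difference within each of the 10 score classes averaged with the weights of the 6pm-only regions. For borders of the WT 6pm library the gap shrank to -6.61 percentage points (95% interval -9.21 to -4.01). With the WT 6pm list cut to the WT 6am length it was -0.592 (-4.38 to 3.20), and with all 6 lists cut -0.155 (-3.09 to 2.78), both intervals that hold 0. For WT 6am it was -15.9 points (-18.6 to -13.3). For GRdim 6pm it was -24.6 points (-27.1 to -22.0), for GRdim prednisolone -27.1 points (-29.7 to -24.6), for WT prednisolone -25.6 points (-28.2 to -23.0) and for GRdim 6am -11.6 points (-13.5 to -9.72). At like score the gap in the WT 6pm library was the smallest of the 6 in size. The matching used the WT 6pm score, and the other 6pm regions hold a peak of another GR list by definition. That order therefore follows in part from the choice of regions and is given as description. In the lowest class, borders of the WT 6pm library lay in 39.5% of the 6pm-only regions and 47.5% of the others. In the seventh class, with scores of 3.84 to 4.49, they lay in 91.3% of 172 6pm-only regions and 93.0% of the others. The GRdim 6pm shares stayed apart along the whole score range, at 19.0% against 36.6% in the lowest class and 35.5% against 72.3% in the seventh.

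**Figure D2:**
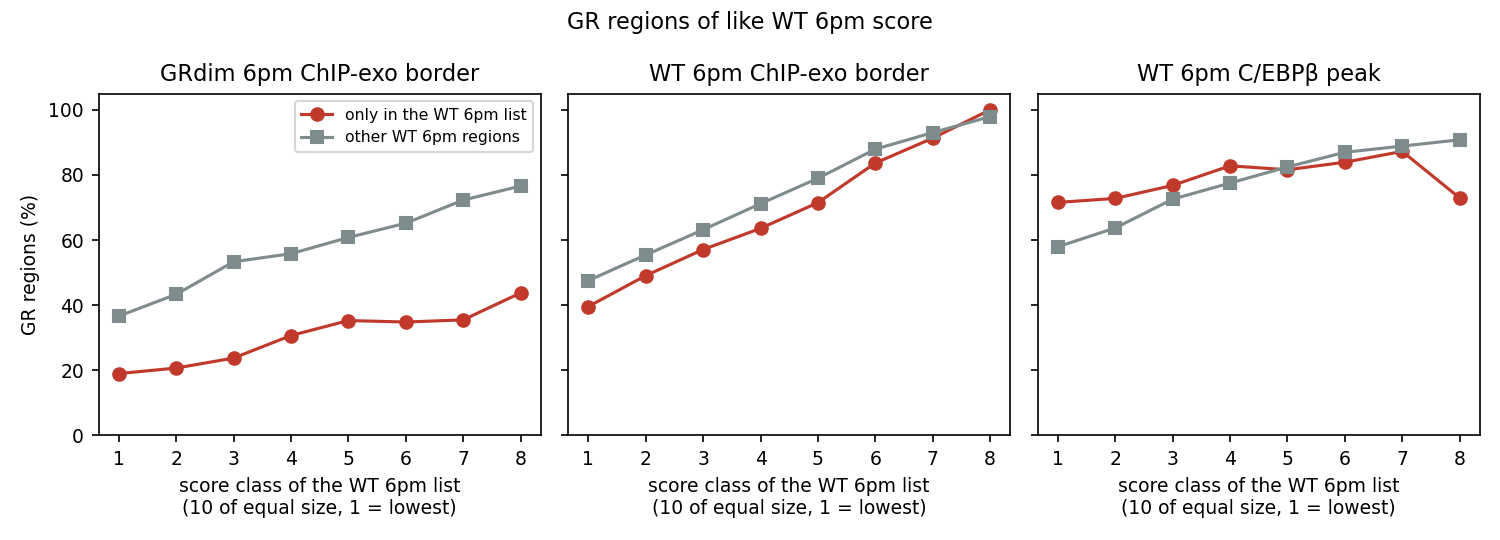
Share of regions (y axis, percent) with a GRdim 6pm border, a WT 6pm border or a WT 6pm C/EBPβ peak in the 8 lower of the 10 score classes of the WT 6pm list (x axis); red circles are regions listed only at WT 6pm and grey squares the other WT 6pm regions. The GRdim 6pm shares stay apart in each class, whereas the C/EBPβ shares cross: 71.5% against 57.9% in the lowest class and 72.9% of 48 regions against 90.8% in the eighth. The 2 upper classes hold 13 and 1 of the 6pm-only regions and are not drawn.

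A pair of smaller sets with short list membership gives a closer comparison. There were 1968 regions listed at WT 6pm and GRdim 6pm and nowhere else, and 683 listed at WT 6pm and WT 6am and nowhere else; the GRdim 6pm and WT 6am libraries are not independent of how these sets were chosen. At like score, the share of 6pm-only regions with a WT 6am border differed by -3.01 points from that of the regions shared with GRdim 6pm (-6.73 to 0.707, an interval that holds 0). It differed by -37.3 points from that of the regions shared with WT 6am (-42.7 to -31.9). For borders of the GRdim 6pm library the order turned round: the difference was -33.2 points against the regions shared with GRdim 6pm (-36.8 to -29.5) and 8.28 points against those shared with WT 6am (4.04 to 12.5). In the WT 6pm library the 6pm-only regions were below both, by -5.67 points (-9.38 to -1.96) and -9.90 points (-16.6 to -3.17).

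The 2 WT collection times were then compared at the same 6pm-only regions. A border was listed in 1761 regions at both times, in 1335 at 6pm but not at 6am, in 880 at 6am but not at 6pm, and in 1410 at neither time. The share with a border was 8.45 points higher at 6pm than at 6am (95% paired interval 6.75 to 10.1), against a difference of 1.62 points (0.798 to 2.44) at the other 6pm regions. These include regions with a WT 6am peak, which the rule leaves out of the 6pm-only set. At the regions shared with GRdim 6pm alone the difference was 12.3 points (9.77 to 14.8). At those shared with WT 6am alone it was -7.91 points (-11.0 to -4.73). A higher share at 6pm was thus not particular to 6pm-only regions. The WT 6pm library held 43.1 M tags and the WT 6am library, the deeper of the pair, 55.7 M. When a border was required on each strand the difference at 6pm-only regions fell to 0.891 points, with an interval of -0.402 to 2.18 that holds 0. With borders of at least 20 tags it was 8.30 points (7.44 to 9.16), at shares of 11.3% at 6pm and 2.97% at 6am. The difference kept its direction and call in 10 of 11 alternative settings. With prednisolone the share in WT differed from that at 6am by -19.7 points (-21.3 to -18.0), with 597 regions holding a border only with prednisolone and 1658 only at 6am. With borders of at least 20 tags that difference was -1.08 points, at shares of only 1.89% with prednisolone and 2.97% at 6am.

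In GRdim livers the share of 6pm-only regions with a border was 17.4 points higher at 6pm than at 6am (16.1 to 18.7), and at the other 6pm regions the difference was larger, at 31.1 points (29.9 to 32.3). It was 14.9 points higher with prednisolone than at 6am (13.7 to 16.1), against 26.6 points (25.5 to 27.8) at the others. Both differences are measured against the GRdim 6am library, the one with the fewest tags. At 6pm the GRdim share differed from the WT share by -31.7 points (-33.4 to -30.0): 454 regions had a border in GRdim only, 2162 in WT only and 934 in both. The same difference at the other 6pm regions was -16.7 points (-17.8 to -15.7). With prednisolone the difference of GRdim from WT in 6pm-only regions was -6.07 points (-7.55 to -4.59), against -6.79 points (-7.95 to -5.62) at the others. At 6am it was -40.7 points (-42.1 to -39.2), against -46.2 points (-47.3 to -45.1) at the others. The gap between genotypes was thus wider at 6pm-only regions than at the other 6pm regions at 6pm, and not under the other conditions. The rule leaves out regions with a GRdim 6pm peak, so this follows in part from the choice of regions. At the regions shared with WT 6am alone the 6pm difference was wider still, at -53.3 points (-57.3 to -49.0). At those shared with GRdim 6pm alone it was -9.60 points (-12.2 to -7.02). At 6pm-only regions the 6pm difference between genotypes kept its sign under other border rules. It was -11.0 points with borders of at least 20 tags, at shares of 0.297% in GRdim and 11.3% in WT. With borders on both strands it was -13.0 points, at 4.14% and 17.2%.

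Reading the 6 libraries together, 4539 of the 6pm-only regions (84.3%) had a border in at least 1 library. The remaining 847, or 15.7%, had none, against 65 of the other 6pm regions (0.732%) and 6.39% of all WT 6pm regions. Those 847 had a median score of 2.23. Borders were found in WT but no GRdim library at 2348 regions (43.6%), against 15.4% of the other 6pm regions and 26% of all. Both genotypes had a border at 1906 (35.4%), against 82.3% of the others and 64.6% of all. GRdim but no WT library had one at 285 (5.29%), against 1.63% of the others and 3.01% of all. Borders in 1 genotype were thus more frequent at 6pm-only regions, where fewer libraries had a border at all. The WT 6pm library alone had a border at 677 regions (12.6%; others 1.19%; all 5.49%), and the WT 6am library alone at 376 (6.98%; others 0.855%; all 3.17%). WT 6pm and WT 6am, with no other library, shared 562 regions (10.4%; others 3.08%; all 5.86%). All 6 libraries had a border at 72 of the 6pm-only regions (1.34%), against 28.7% of the other 6pm regions. Neither a border in any library nor a C/EBPβ peak under any condition was found at 195 of the 6pm-only regions (3.62%), against 5 of the others (0.0563%) and 1.4% of all.

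The tags at borders, in RPM (reads scaled to the size of the library) as deposited and summed over each region, were lower at 6pm-only regions in each library. In the WT 6pm library the median over regions with a border was 0.417 RPM in 6pm-only regions (18 tags, 1 border) and 1.49 RPM in the others (64 tags, 4 borders). In the WT 6am library it was 0.269 and 1.04 RPM. In the GRdim 6pm library it was 0.228 RPM in 6pm-only regions and 0.776 RPM in the others. The medians of the 6pm-only regions in the other 3 libraries lay between 0.219 and 0.316 RPM, and those of the other 6pm regions between 0.601 and 0.750 RPM. Across all 5386 6pm-only regions, with regions that lack a border set to 0, Spearman's rho between the WT 6pm peak score and the summed RPM was 0.40 for the WT 6pm library, 0.28 for WT 6am and 0.16 for GRdim 6pm; the points share 1 peak list and 1 library each, and the values are given as description.

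**Figure D3:**
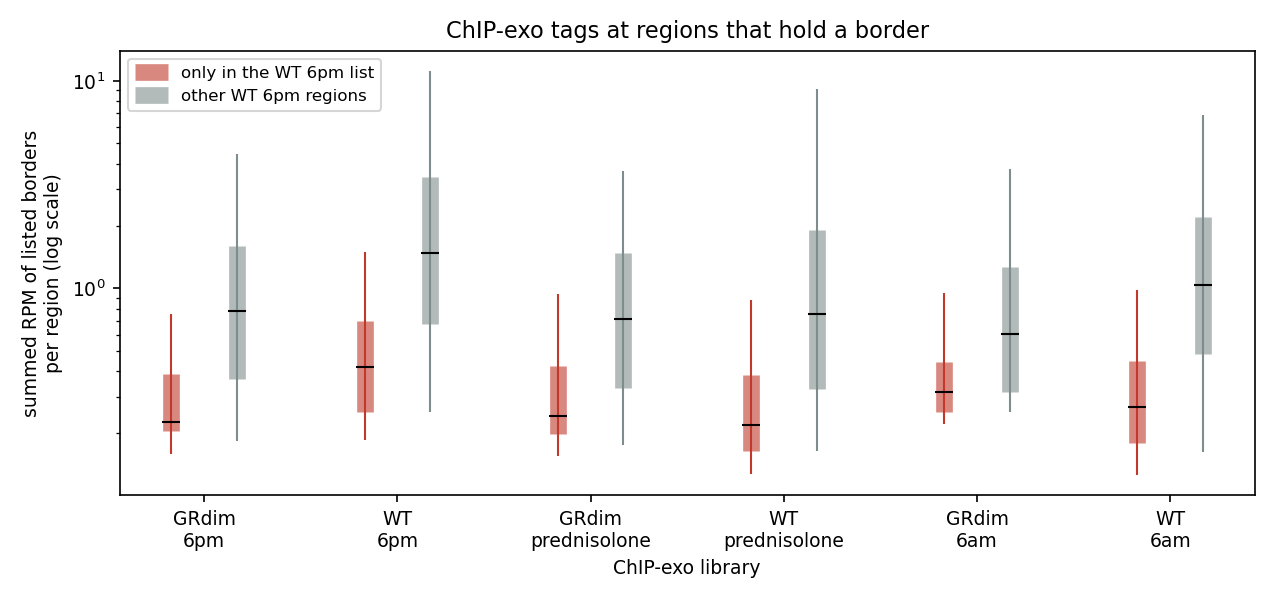
Summed RPM of the listed borders per region (y axis, log scale) in each ChIP-exo library (x axis), over regions that hold a border; black ticks are medians, thick bars the middle 50% and thin lines the 5th to 95th percentiles, with regions listed only at WT 6pm in red and other WT 6pm regions in grey. The WT 6pm medians are 0.417 and 1.49 RPM.

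Where a 6pm-only region had borders in both WT libraries, its summed RPM was usually higher at 6pm. Over these 1761 regions the median was 0.487 RPM at 6pm and 0.305 RPM at 6am, with a median log2 ratio of 0.69. The 6pm value was the higher one at 73.4% of them. It was at least 2-fold higher at 685 (38.9%; 36.3% of all WT 6pm regions with both borders) and at least 2-fold lower at 111 (6.30%; 8.18% of all). The other 6pm regions had a median log2 ratio of 0.64 and were higher at 6pm in 72.7%, so 6pm-only regions and the rest were close in this ratio. The lowest listed RPM was 0.07 at WT 6pm and 0.054 at WT 6am. With a common floor of 0.126 RPM for all libraries, the 6pm value was higher at 73.4% of such 6pm-only regions. The part of the listing thresholds in the WT ratio was not tested beyond that. In GRdim livers, 210 of the 6pm-only regions had a border at both times, with medians of 0.297 RPM at 6pm and 0.348 RPM at 6am and a median log2 ratio of -0.31. Among them 23 were at least 2-fold higher at 6pm (11.0%; 42.7% of all) and 37 at least 2-fold lower (17.6%; 9.74% of all). The other 6pm regions in GRdim had a median log2 ratio of 0.82. The lowest RPM that the GRdim 6am library lists is above that of the GRdim 6pm library, and its part in these ratios was not tested. Between genotypes at 6pm, 934 of the 6pm-only regions had borders in both, with medians of 0.251 RPM in GRdim and 0.510 RPM in WT and a median log2 ratio of -0.86. There, 426 were at least 2-fold lower in GRdim (45.6%; 48.4% of all) and 37 at least 2-fold higher (3.96%; 7.34% of all).

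The spacing of the strongest border on the minus strand from that on the plus strand was measured where both lay within 100 bp of the peak centre. In the WT 6pm library 914 of the 6pm-only regions had such a pair. A spacing of 29 to 31 bp, the longer of the pair of peaks in the WT histograms of the other 6pm regions, was found in 39 of them (4.27%, interval 3.14 to 5.78), against 6.50% of the other 6pm regions and 6.18% of all. A spacing of 10 to 12 bp, beside the shorter peak, was found in 44 (4.81%), against 5.47% of the others and 5.38% of all. At spacings of 40 to 60 bp the 6pm-only regions had 2.52% per 3 bp. The difference at 29 to 31 bp was -2.23 points (-3.55 to -0.595). It did not hold its direction: with the closest opposite borders it was 1.80 points (0.664 to 3.29), and with borders of at least 20 tags 0.0889 points (-4.23 to 7.16).

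In the WT 6am library 870 of the 6pm-only regions had a border pair. A spacing of 29 to 31 bp was found in 65 (7.47%), against 8.17% of the others and 8.08% of all, a difference of -0.698 points with an interval of -2.42 to 1.36. A spacing of 10 to 12 bp was found in 38 (4.37%), against 9.56% of the others and 8.89% of all, a difference of -5.19 points (-6.60 to -3.46), or -4.35 points (-6.80 to -1.90) at like score. The short spacing was thus rarer in 6pm-only regions at 6am, as measured with the strongest borders. It was not recomputed with the closest opposite borders or with borders of at least 20 tags. The other 6pm regions include regions with a WT 6am peak, which the 6pm-only set leaves out by definition. With prednisolone, 365 of the 6pm-only regions had a pair in WT, with 30 (8.22%) at 29 to 31 bp, against 9.53% of the others and 9.43% of all. The difference was -1.32 points (-3.89 to 2.07), and -5.18 points (-9.23 to -1.12) at like score. In GRdim with prednisolone it was 12 of 289 (4.15%, 2.39 to 7.12), against 1.99% (1.59 to 2.49) of the others and 2.15% of all. In the GRdim 6pm library there were 220 pairs and 5 at 29 to 31 bp (2.27%), against 2.37% of the others and 2.36% of all.

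**Figure D4:**
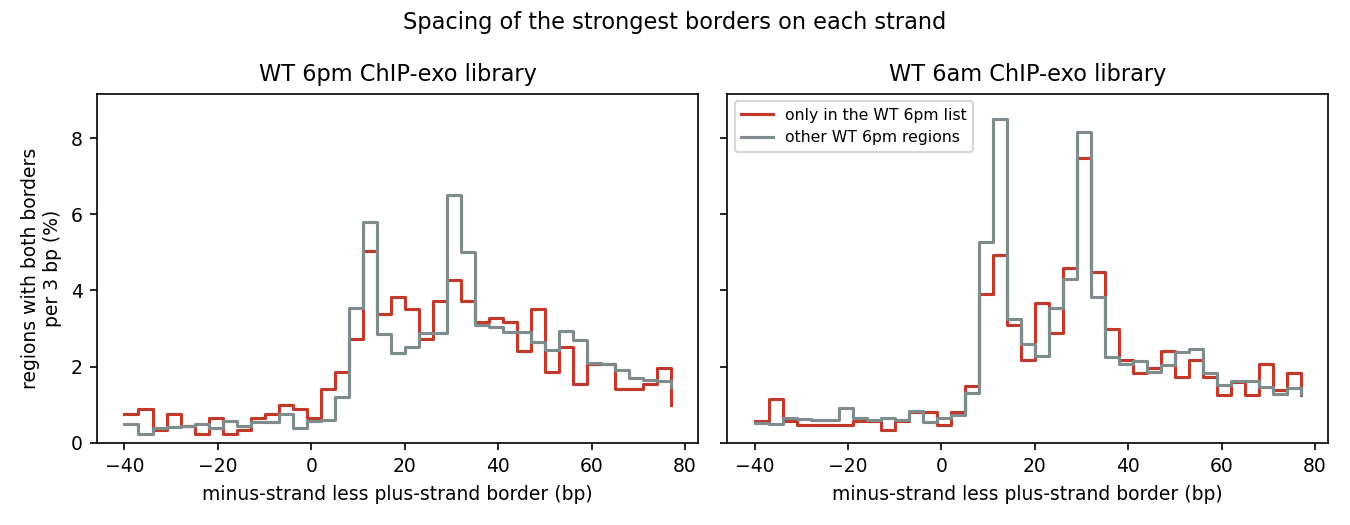
Share of regions with borders on both strands (y axis, percent per 3 bp) by the position of the strongest minus-strand border relative to the strongest plus-strand border (x axis, bp), in the WT 6pm (left) and WT 6am (right) libraries; red is regions listed only at WT 6pm and grey the other WT 6pm regions. At 29 to 31 bp the grey curve has a peak in both libraries and the red curve a clear one at WT 6am only, with 4.27% against 6.50% at WT 6pm and 7.47% against 8.17% at WT 6am.

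C/EBPβ peaks were also not used to choose the regions. At 6pm a C/EBPβ peak overlapped 4144 of the 6pm-only regions, or 76.9% (75.8 to 78.0), against 87.0% of the other 6pm regions and 83.2% of all. With prednisolone the count was 2620, or 48.6% (47.3 to 50.0), against 66.3% of the others and 59.7% of all. At 6am it was 3279, or 60.9% (59.6 to 62.2), against 75.9% of the others and 70.2% of all. Most 6pm-only GR regions therefore lay at a C/EBPβ peak, also at a time when the GR list had none. Where the peaks overlapped at 6pm, their centres lay a median of 24 bp apart in both groups, and within 50 bp in 80.3% of the 6pm-only and 79.6% of the other regions. The median C/EBPβ score at 6pm was 4.12 at 6pm-only regions, 5.65 at the other 6pm regions and 3.71 over the whole list.

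C/EBPβ at 6pm-only regions differed between conditions in the order 6pm, 6am, prednisolone. The share was 16.1 points higher at 6pm than at 6am (15.0 to 17.1), with 916 regions holding a peak at 6pm only of this pair and 51 at 6am only. At the other 6pm regions the difference was 11.1 points (10.4 to 11.8). At the regions shared with GRdim 6pm alone it was larger than at 6pm-only regions, at 19.3 points (17.5 to 21.1). At those shared with WT 6am alone it was 11.6 points (8.79 to 14.3). Of the 2107 6pm-only regions with no C/EBPβ peak at 6am, 43.5% had one at 6pm, against 49.6% of such other regions and 46.6% of all. The share with prednisolone differed from that at 6am by -12.2 points (-13.3 to -11.1), with 152 regions holding a peak only with prednisolone and 811 only at 6am. Of the 3279 6pm-only regions with a C/EBPβ peak at 6am, 24.7% (23.3 to 26.2) had none with prednisolone, against 17.3% (16.4 to 18.2) of such other regions and 19.7% of all. The same held for 164 of 419 such regions shared with WT 6am alone, and for 274 of 1346 shared with GRdim 6pm alone. The 3 C/EBPβ lists held 26226 peaks at 6pm, 21941 with prednisolone and 21644 at 6am. With the lists cut to the same length, the difference of 6pm over 6am at 6pm-only regions was 7.15 points. That of 6pm over prednisolone was 19.8 points, against 28.3 points as deposited.

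By pattern, 2463 of the 6pm-only regions (45.7%) had a C/EBPβ peak under all 3 conditions, against 62.6% of the other 6pm regions. A peak at 6pm alone was found at 783 (14.5%), against 9.53% of the others. Peaks at 6pm and 6am but not with prednisolone were found at 765 (14.2%), against 12.4%. No C/EBPβ peak under any condition was found at 1172 (21.8%), against 11.0%.

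At like GR score the C/EBPβ comparison changed. Averaged over the score classes, the 6pm share of 6pm-only regions was 5.96 points above that of the others (3.48 to 8.43), and for the prednisolone share the difference was -3.53 points (-6.21 to -0.856). The direction at 6pm depended on the score: 6pm-only regions had the higher share in the 4 lowest classes, and the lower share from the fifth class on. In the lowest class the shares were 71.5% and 57.9%, and in the sixth, with scores of 3.36 to 3.84, they were 83.9% and 86.9%. With scores of at least 3 alone the difference was -2.82 points (-5.40 to -0.233). Against the regions shared with GRdim 6pm alone it was -3.20 points (-6.48 to 0.0725), and against those shared with WT 6am alone it was 13.2 points (6.42 to 20.0).

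A WT 6pm border was about as frequent in 6pm-only regions with a C/EBPβ peak at 6pm (57.2%, 55.7 to 58.7, of 4144) as in those without one (58.5%, 55.7 to 61.2, of 1242), with intervals that overlap. GRdim 6pm borders lay in 27.2% (25.8 to 28.5) of those with a C/EBPβ peak and 21.1% (18.9 to 23.5) of those without. With prednisolone, GRdim borders lay in 25.5% (24.2 to 26.9) and 15.8% (13.9 to 17.9). GRdim borders were thus more frequent at the 6pm-only regions that held C/EBPβ, without matching on score. At the other 6pm regions both genotypes had the higher share with C/EBPβ, at 75.6% against 48.5% for GRdim 6pm and 89.5% against 84.1% for WT 6pm.

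The distance from each 6pm-only region to the nearest other GR region, centre to centre, ran from 218 bp to 4751258 bp with a median of 6843 bp. The quartiles were 1935 and 28964 bp, and the median of the other 6pm regions was 3963 bp. Another GR region lay within 1000 bp of 696 of the 6pm-only regions (12.9%), against 18.8% of the others and 16.6% of all. The difference was -5.85 points (95% Newcombe interval -7.05 to -4.63), and -2.65 points (-4.53 to -0.767) at like score. Within 500 bp the counts were 232 (4.31%), against 5.90% of the others and 5.3% of all, and within 5000 bp they were 2358 (43.8%), against 55.2%. The 6pm-only regions were thus the more isolated as listed, but the call at 1000 bp was lost when the lists were cut: -2.21 points (-6.11 to 2.74) with the WT 6pm list cut to the WT 6am length, and -1.91 points (-5.60 to 3.33) with all 6 cut. At scores of 4 and above it turned, with 22.8% of the 6pm-only regions and 20.5% of the others having a region that near. No other GR region lay within 10 kb of 2295 (42.6%), against 31.6% of the others, and 83 (1.54%) had 5 or more such neighbours, against 3.26%. The most crowded one by this count, chosen after the values were seen, was chr9:46031238-46031437, with a score of 3.22 and 7 neighbours within 10 kb.

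**Figure D5:**
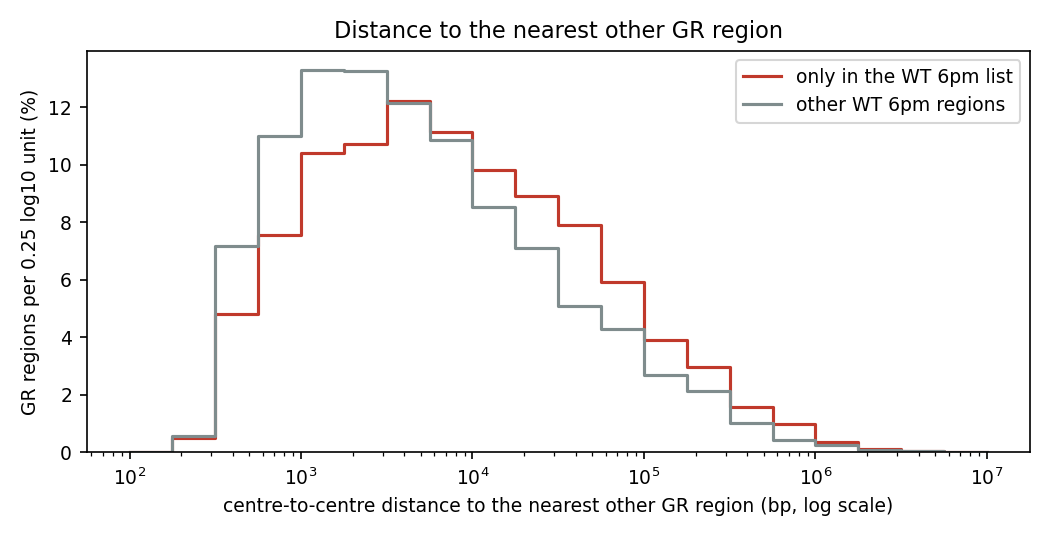
Distribution of the centre-to-centre distance to the nearest other GR region (x axis, bp, log scale; y axis, percent of regions per 0.25 log10 unit) for regions listed only at WT 6pm (red) and other WT 6pm regions (grey). The red curve lies to the right, with medians of 6843 and 3963 bp.

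The nearest neighbour of a 6pm-only region was itself 6pm-only in 2096 cases (38.9%), where 35.1% of all GR regions are 6pm-only. It was a region of all 6 lists in 467 (8.67%), where 10.1% of all regions are. The neighbour had the higher WT 6pm score in 73.1% of 5093 cases in which it was listed there. The median score of the neighbours was 3.25, against 3.36 over the whole WT 6pm list and 2.48 at the 6pm-only regions. The share of 73.1% is not given as a trait of the neighbours. No such share is given for the other 6pm regions, and the part of the low scores of the 6pm-only regions was not tested. A peak of the WT 6am list lay within 500 bp of 84 of the 6pm-only regions (1.56%), and a GRdim 6pm peak within 500 bp of 109 (2.02%). The other lists, all shorter, gave 52 (0.965%) for WT prednisolone, 37 (0.687%) for GRdim 6am and 36 (0.668%) for GRdim prednisolone. The rule removes regions that overlap those lists, so these counts follow in part from the choice of regions. No such counts are given for the other 6pm regions.

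The 232 regions with a neighbour within 500 bp stood apart in C/EBPβ. Of these, 59.5% (53.1 to 65.6) held a C/EBPβ peak at 6pm, against 77.7% (76.6 to 78.8) of the 5154 more distant ones, a difference of -18.2 points (-24.8 to -12.0). At 6am the difference was -14.5 points (-21.0 to -7.97), at 47.0% and 61.5%. The other 6pm regions showed the same direction, with -10.7 points at 6pm (-14.6 to -7.24). WT 6pm borders lay in 60.8% of the near regions, and in 56.1% to 58.7% of the regions in the 4 wider distance bands. The 162 of the 6pm-only regions with scores of 4 and above had a neighbour within 500 bp in 20 cases (12.3%, 8.14 to 18.3), against 5.97% (5.35 to 6.65) of the other 6pm regions with such scores. Those with scores of 2 to 3 had one in 169 of 4152 cases (4.07%, 3.51 to 4.72), against 5.22% of the others.

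The 6pm-only regions were spread over all chromosomes. They made up 34.1% to 41.8% of the WT 6pm peaks on each autosome. On chromosome X they were 62 of 111 peaks, or 55.9% (46.6 to 64.7). Those 62 had a median score of 2.38, against 2.48 for autosomal 6pm-only regions, and 50.0% had a WT 6pm border, against 57.6%.

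The 10 highest-scoring 6pm-only regions show what the strongest members of the set look like. Each had a WT 6pm border, 9 had a WT 6am border, 5 had a GRdim 6pm border, and 5 had a C/EBPβ peak at 6pm. In 6 of the 10 another GR region lay within 1000 bp. The highest score, 7.75 (rank 1140 of the list), was at chr4:59345173-59345372. Its borders held 228 tags (5.29 RPM) in WT at 6pm, 8 tags in GRdim at 6am and 150 tags (2.69 RPM) in WT at 6am. It had no listed border in the other 3 libraries and no C/EBPβ peak, and its neighbour at 395 bp, chr4:59344734-59345021, was in all 6 GR lists. A border was thus listed there in WT at both times, next to a region present in every list.

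The region at chr14:19231612-19231811 (score 6.72) had 256 tags (5.94 RPM) in WT at 6pm, 50 tags with prednisolone and 46 tags (0.825 RPM) at 6am. In GRdim it had a border with prednisolone alone, of 9 tags. C/EBPβ peaks were listed there with scores of 4.72 at 6pm, 2.98 with prednisolone and 4.14 at 6am, and the nearest GR region lay 22794 bp away. The 3 others of the 10 with no GR region within 1000 bp were chr15:79247199-79247398 (score 6.03), with 124 tags in WT at 6pm, 10 with prednisolone and 51 at 6am and no GRdim border, chr6:23079254-23079453 (score 5.99), with 97, 89 and 49 WT tags under these conditions, and chr11:115541253-115541452 (score 5.77), with 168, 30 and 65. These 4 regions held C/EBPβ under all 3 conditions, and none of the 6 with a nearer neighbour did.

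Borders in all 6 libraries were found at chr16:26705849-26706048 (score 6.50). It had 86 tags in GRdim at 6pm and 311 in WT at 6pm, 81 and 108 with prednisolone in GRdim and WT, and 51 in GRdim and 132 in WT at 6am. The neighbour 308 bp away, chr16:26706140-26706373, was listed in the other 5 GR lists and not at WT 6pm, so every list had a peak at or next to this site. The pair of other high-scoring regions with borders in all 6 libraries also had a near neighbour. These were chr12:16625767-16625966 (score 6.10), 417 bp from a region of all 6 lists with a WT 6pm score of 22.22, and chr2:11457112-11457311 (score 5.59), 439 bp from a region of 5 lists with a score of 9.03. The first had 42 tags in GRdim and 90 in WT at 6pm, and 14 in GRdim and 144 in WT at 6am. The second had 58 and 146 at 6pm, and 25 and 92 at 6am.

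At chr17:32041385-32041584 (score 5.66) borders were listed at 6pm alone, with 79 tags in GRdim and 157 in WT, and none in the prednisolone or 6am libraries. It had no C/EBPβ peak, and a region of 4 lists lay 398 bp away. The region chr11:118995374-118995573 (score 6.10) had 185 tags in WT at 6pm, 32 with prednisolone and 36 at 6am, 8 tags in GRdim with prednisolone, and a C/EBPβ peak at 6pm alone (score 2.67). A C/EBPβ peak at 6pm alone was also found at chr11:51569940-51570139 (score 4.93), with 21 tags in GRdim and 44 in WT at 6pm, and 9 tags in WT at 6am. These sites had most or all of their tags at 6pm.

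The most WT 6pm tags of any 6pm-only region, 369 (8.56 RPM), were at chr17:34136495-34136694, whose score was 2.70. It had 36 tags in GRdim at 6pm, 10 in GRdim and 15 in WT with prednisolone, none in GRdim at 6am and 82 (1.47 RPM) in WT at 6am. Its strongest borders were 30 bp apart at WT 6pm, it had no C/EBPβ peak, and the nearest GR region lay 170634.5 bp away. A low peak score thus stood beside the largest border signal of the set at this site.

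Borders in the WT 6pm library and no other were found at chr11:101204135-101204334 (score 4.82), with 51 tags and a C/EBPβ peak at 6pm alone (score 3.71). The next by score was chr5:151719632-151719831 (score 4.75), with 24 tags and a C/EBPβ peak at 6pm alone (score 2.49), 719 bp from a region of all 6 lists. A region on chromosome 18 with a score of 4.71 had 22 tags and, unlike these, a C/EBPβ peak at 6am alone (score 2.01). At these sites the WT 6pm library alone had listed borders.

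The highest-scoring 6pm-only region with no border in any library was chr12:41225598-41225797 (score 4.49). C/EBPβ peaks were listed there at 6pm (score 3.94) and at 6am (score 3.46). The next were chr8:34992148-34992347 (score 3.76), with C/EBPβ at 6pm (5.53) and 6am (3.86), and chr16:93717578-93717777 (score 3.65), with C/EBPβ at 6pm alone (2.79). Each of these held C/EBPβ at 6pm. Of all 847 6pm-only regions without a border, 642 did (75.8%, 72.8 to 78.6), close to the 77.2% (75.9 to 78.4) of those with one; over all 6pm regions without a border the share was 76.9%.

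The most isolated regions named by distance included chrX:151650904-151651103 (score 3.29), 3725506 bp from any other GR region, with 73 tags in WT at 6pm and 12 at 6am and C/EBPβ peaks under all 3 conditions. They also included chr5:13844352-13844551 (score 2.23), 2942530 bp from any other, with 9 tags in GRdim at 6pm, 18 in GRdim with prednisolone and none in WT. The farthest of all lay on chromosome 18 and had a border of 8 tags in the WT 6am library alone.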

How the data were processed

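GR and C/EBPβ ChIP-seq peaks were deposited as lists of 200 bp peaks on mm9 with the authors' score per peak, which they do not define in any source used here; scores were compared within a list only. ChIP-exo borders of 10 bp were deposited with a tag count and RPM (reads scaled to library size), per the file headers. Bowtie and HOMER are named in the submitters' processing notes, without versions; no source used here gives their settings. The depth of each ChIP-exo library was taken from listed tags divided by RPM; for ChIP-seq the depth is unknown. Each list is 1 pool of 2 replicates, so p-values are not given. Any overlap of 1 bp with the 200 bp WT 6pm peak counted as shared. Intervals are 95% Wilson (shares), Newcombe (differences) and Bonett-Price (paired differences). Named regions were the top few by score, tags, border pattern, C/EBPβ pattern, distance and gap. The regions, sets and named-region rules were chosen with earlier results of these data known. Planned motif and gene-list counts need an mm9 genome and annotation and were not run. Code was tested on simulated data and ran in Python 3.11.15 with pandas 2.3.3 and numpy 2.4.6, scipy 1.17.1 giving rank correlations and matplotlib 3.10.9 the plots.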

Additional observations from a re-analysis of the deposited data

Results flagged for a closer look

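Where a 6pm-only region held borders at both times, the median log2 ratio of summed RPM at 6pm over 6am was -0.31 in GRdim (210 regions) and 0.69 in WT (1761 regions), so the signs were opposite. Over all 5386 regions, with those that lack a border set to 0, the mean was higher at 6pm in both genotypes, at 0.0834 RPM at 6pm and 0.0363 RPM at 6am in GRdim, and 0.333 and 0.182 RPM in WT. The share of 6pm-only regions with a border, prednisolone minus 6am, was 14.9 points in GRdim and -19.7 points in WT. The other 6pm regions had the same opposite signs, at 26.6 points in GRdim and -12.8 points in WT, as did the regions shared with GRdim 6pm alone (38.4 and -20.4 points) and with WT 6am alone (7.03 and -39.97 points), so this is not particular to the 6pm-only regions. Neither difference between genotypes was tested, since each library is 1 pool. The GRdim 6am library, which enters both GRdim values, had the fewest tags, at 31.6 M, and the part of that was not tested.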

How the results depend on the processing

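Of 223 values recomputed under 21 alternative settings, 141 kept their direction and call or lay within the interval of the value as reported, and 58 of 93 single shares moved. The number of 6pm-only regions was 5429 and 5189 under the 2 other merging rules, 249 with the WT 6pm list cut to the WT 6am length, 185 with all 6 lists cut and 1234 with scores of at least 3. The WT 6pm share of borders less the 6am share kept its direction and call in 10 of 11 settings. It was 0.891 points with borders on both strands. The share with more RPM at 6pm than at 6am, 73.4% as reported, was 83.5% and 90.8% under the 2 cuts, 78.0% with scores of at least 3 and 81.4% with borders of at least 20 tags. At like score, the WT 6pm border difference was -0.592 and -0.155 points under the 2 cuts, with intervals that hold 0. The WT 6am border difference was -3.23 points with all lists cut and -3.01 against regions shared with GRdim 6pm alone. The GRdim 6pm border difference was 8.28 against regions shared with WT 6am alone. The C/EBPβ difference at 6pm was -6.19 and -7.01 under the 2 cuts, -2.82 with scores of at least 3 and -3.20 against regions shared with GRdim 6pm alone. The difference in having another GR region nearby was -2.21 and -1.91 points under the 2 cuts. The difference at 29 to 31 bp was -1.07 and -2.44 under the 2 cuts, -1.33 with scores of at least 3, 1.80 with the closest opposite borders and 0.0889 with at least 20 tags. The cuts leave few regions; otherwise the cause was not tested. No paired analysis was possible because each list is a pool of replicates 1 and 2, so no samples can be paired (the paired intervals pair regions), and for the same reason no replicate could be left out. Thresholds in the ChIP-exo lists differ between libraries and limit what a missing border shows.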
